A study of Homo sapiens with 9 samples.

Results

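The p53 network was followed through 9 transcripts, CDKN1A, MDM2, TP53INP1, FAS, TNFRSF10B, ZMAT3, RRM2B, GADD45A and SESN1. They were chosen by name, as known targets of the transcription factor p53 with roles in growth arrest, feedback, death signalling and repair, and all 9 were found among the 20263 genes of the deposited count table. The cells are HaCaT, an immortalised line of human epidermal keratinocytes, and the 9 libraries fall into 3 groups of 3. The control group holds cells given neither melanosomes nor glabridin, and carries the labels Blank and WT. The melanosome group holds cells loaded with melanosomes, the pigment organelles that melanocytes hand to keratinocytes. The glabridin group holds melanosome-loaded cells that were also treated with glabridin, an isoflavan of licorice root, so every glabridin library carries melanosomes too and no group received glabridin alone. How much glabridin was used, for how long, and where the melanosomes came from is not stated in the labels, nor is it said whether replicates came from separate cultures. P-values therefore reflect how far these particular libraries scatter, and that scatter may be technical. The series text states the aim as the mechanism by which glabridin acts on melanosome breakdown.

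p53 is held low in unstressed cells by MDM2, a ubiquitin ligase that is itself a p53 target, so that the pathway limits itself. When p53 is stabilised it binds sites made of a pair of ten-base half-sites and raises genes that stop the cell cycle, repair DNA or trigger death. Several of these genes also answer to other factors; CDKN1A, GADD45A, TNFRSF10B and the sestrins are known to be raised in stress responses that do not need p53. A relative, p63, on which keratinocytes depend, binds similar sites. Whether p53 is functional in HaCaT cells was not examined here, so the levels of these transcripts are not taken as a measure of p53 activity.

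Promoter stretches are shown first for CDKN1A and MDM2, which were called in opposite directions in the comparisons against control. A p53 site of FAS, the member with no called change, is shown with them. RefSeq promoter windows (GRCh38.p14, 250 bases before each annotated start, both strands searched) were matched for CDKN1A, MDM2, FAS, ZMAT3 and SESN1, and not for GADD45A. A p53 full site was taken as 2 half-sites of the p53 consensus with no spacer, at most 2 mismatches over 20 bases and the fixed C and G of each half-site kept. It was found in 85 of 35116 windows, or 0.242%. Capitals mark such a site in the stretches below, which leave out bases that are exons of the same gene, except for the FAS site, whose window is annotated as exon.

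The stretch before the CDKN1A start in the RefSeq table, chr6:36678464-36678657 on the plus strand, lies inside the longer gene as GENCODE annotates it. It holds no p53 full site and no half-site, while the whole window holds 4 GGGCGG boxes, a motif present in 42.6% of all windows.
CDKN1A: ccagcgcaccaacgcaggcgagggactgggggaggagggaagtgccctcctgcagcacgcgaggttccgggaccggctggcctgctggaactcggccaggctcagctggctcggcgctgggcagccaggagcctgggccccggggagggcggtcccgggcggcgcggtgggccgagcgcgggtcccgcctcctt
The upstream start of MDM2, chr12:68807922-68808171 on the plus strand, was likewise without a full site.
MDM2 upstream start: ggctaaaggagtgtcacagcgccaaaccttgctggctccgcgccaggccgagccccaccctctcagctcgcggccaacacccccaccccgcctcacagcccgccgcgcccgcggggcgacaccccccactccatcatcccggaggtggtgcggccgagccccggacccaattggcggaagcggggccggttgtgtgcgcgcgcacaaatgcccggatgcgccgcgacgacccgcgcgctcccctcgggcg
The window before the downstream MDM2 starts, chr12:68808767-68809001 on the plus strand within the MDM2 gene, held a full site with 2 mismatches.
MDM2 downstream start: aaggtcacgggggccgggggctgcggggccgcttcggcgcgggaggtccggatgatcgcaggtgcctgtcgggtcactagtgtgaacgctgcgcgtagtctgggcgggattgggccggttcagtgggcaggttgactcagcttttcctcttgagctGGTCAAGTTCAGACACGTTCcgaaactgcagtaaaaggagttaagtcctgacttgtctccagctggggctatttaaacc
In FAS, chr10:88991309-88991328 on the plus strand, a full site with 2 mismatches lay before a start inside the gene.
FAS site: GGACAAGCCCTGACAAGCCA
No full site was found in the windows of ZMAT3 or SESN1. In SESN1 the window chr6:109008989-109009238 on the minus strand held 1 half-site with no mismatch, a motif present in 5.57% of all windows. These are matches of letters in short windows; distant sites were not searched, and p53 binding was not measured.

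Level per length was compared between genes in the authors' TPM (a scale that corrects for transcript length and library size). In control cells CDKN1A was the most abundant of the 9 at 222 ± 1.44 TPM (mean ± SD, n = 3), followed by GADD45A at 189 ± 5.32 and TNFRSF10B at 39.1 ± 0.716. TP53INP1 stood at 12.9 ± 0.428 TPM, SESN1 at 11.8 ± 0.304, ZMAT3 at 11.3 ± 0.326, MDM2 at 8.52 ± 0.182, RRM2B at 6.32 ± 1.00 and FAS at 4.20 ± 0.624. Only SESN1 and ZMAT3, among neighbours in that order, differed by less than the sum of their SDs. In glabridin cells CDKN1A reached 796 ± 76.2 TPM and GADD45A 508 ± 48.5, TNFRSF10B stood at 76.7 ± 11.6, and the other members ran from 2.16 ± 0.899 for TP53INP1 to 10.3 ± 3.69 for RRM2B. At that end RRM2B, SESN1 and ZMAT3 could not be ordered beyond their SDs, and neither could FAS, MDM2 and TP53INP1.

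Groups were compared on the deposited counts with edgeR's quasi-likelihood test over all 13912 genes that passed a filter on low counts, which all 9 members did, and a gene is called changed at a Benjamini-Hochberg adjusted p under 0.05. Levels below are CPM, in which counts are scaled to a common library size by TMM factors, and differences are log2 fold changes ± SE. In melanosome against control cells 2 of the 9 members rose (CDKN1A and TNFRSF10B), 4 fell (MDM2, TP53INP1, ZMAT3 and SESN1) and 3 were not called, where 62.5% of all genes were called, 29.5% higher and 33.0% lower. In glabridin against melanosome cells 3 rose (CDKN1A, GADD45A and TNFRSF10B), 1 fell (TP53INP1) and 5 were not called, against 43.9% of all genes called, 23.7% higher and 20.2% lower. In glabridin against control cells 4 rose (CDKN1A, GADD45A, TNFRSF10B and RRM2B), 3 fell (MDM2, TP53INP1 and ZMAT3) and 2 were not called, against 70.3% of all genes, 37.6% higher and 32.7% lower. The number of members called is close to these background shares, so it is no result about the members; what they show lies in which of them moved and how far. Their median log2 difference was 0.13 in the first comparison, 0.08 in the second and 0.18 in the third, beside -0.06, 0.01 and 0.03 over all genes tested. Each pair of comparisons shares a group of libraries, so the 3 sets of values are not independent.

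**Figure D1:**
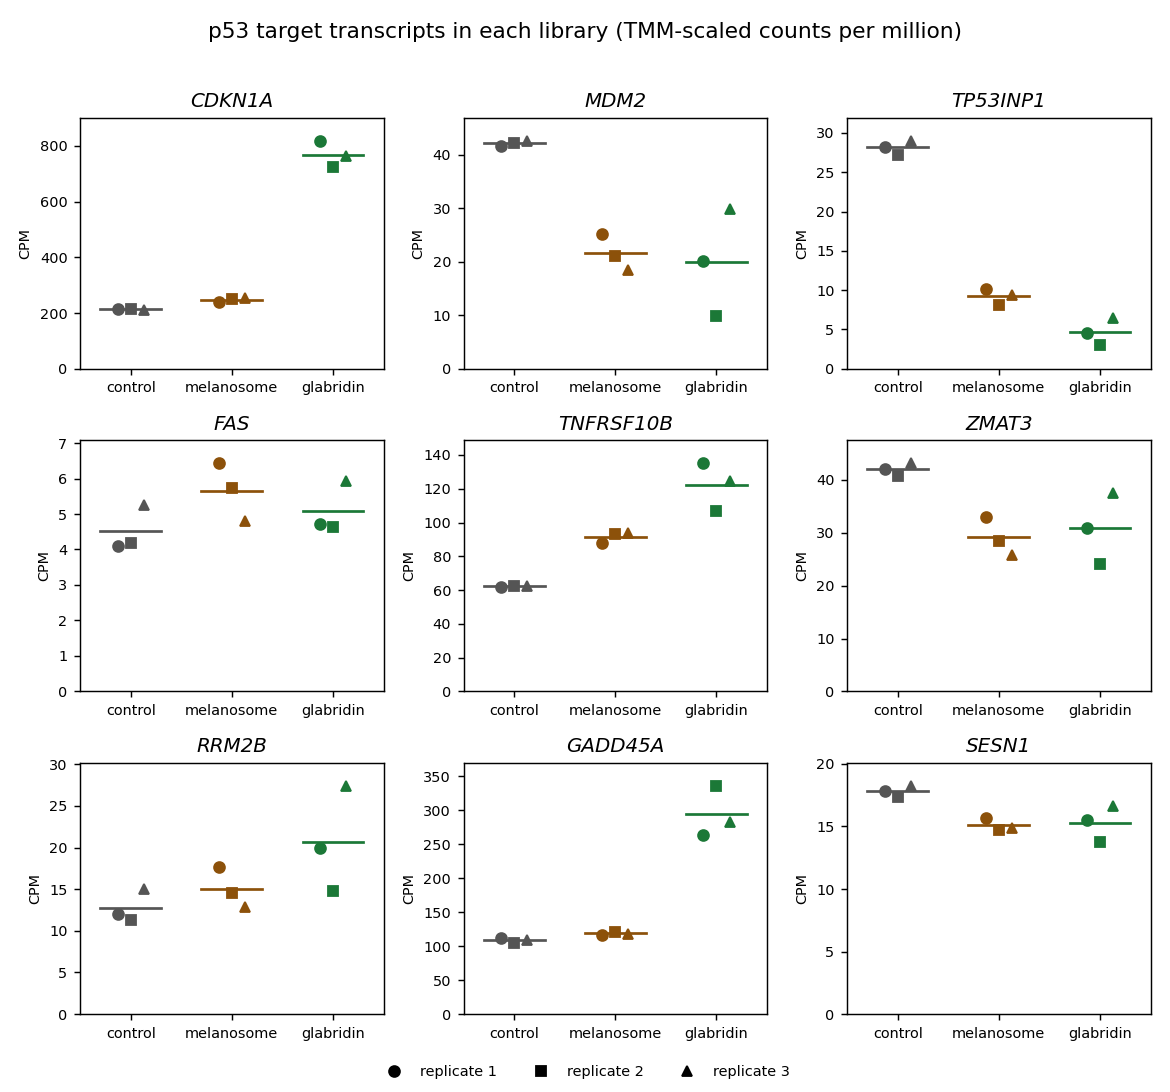
CPM of the 9 p53 targets (y axes, linear, from 0) in the 3 control, 3 melanosome and 3 glabridin libraries; each point is a library, its shape the replicate number, and each bar the group mean. CDKN1A and GADD45A stand far higher in glabridin libraries, TP53INP1 steps down through the groups, and the glabridin points of MDM2, ZMAT3 and RRM2B spread widely.

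CDKN1A and GADD45A gave the largest rises among the members, and these were in the glabridin group. CDKN1A codes for p21, the inhibitor of cyclin-dependent kinases through which p53 halts the cell cycle (chromosome 6, 36676460 to 36687339, plus strand, GRCh38). Its CPM was 215, 214 and 212 in control replicates 1 to 3, 238, 252 and 254 in melanosome replicates and 819, 723 and 762 in glabridin replicates. The groups did not overlap, and every glabridin library lay far above the others. CDKN1A rose 3.10-fold with glabridin over melanosome cells (log2 1.63 ± 0.06, edgeR adjusted p = 3.09e-08) and 3.59-fold over control (log2 1.84 ± 0.06, edgeR adjusted p = 1.89e-09). The step from control to melanosome cells was small, log2 0.21 ± 0.06 (edgeR adjusted p = 0.00837), and was 0.38 when counts were scaled by library totals alone.

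GADD45A, a stress sensor that binds PCNA and CDK1 and is linked to arrest before mitosis, lies on chromosome 1 (67685061 to 67688338, plus strand). It measured 112, 104 and 108 CPM in control, 116, 121 and 118 in melanosome and 263, 336 and 283 in glabridin libraries. Melanosome libraries lay just above control without overlap, and glabridin libraries lay far above both. With glabridin it rose 2.48-fold over melanosome cells (log2 1.31 ± 0.08, edgeR adjusted p = 1.17e-06) and 2.71-fold over control (log2 1.44 ± 0.08, edgeR adjusted p = 1.17e-07). Between melanosome and control cells the log2 difference of 0.13 ± 0.08 did not pass the test (95% interval -0.05 to 0.32, edgeR adjusted p = 0.189), although it did under library totals alone, with these 2 groups fitted by themselves and with limma.

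Against control, the feedback gene MDM2 went the other way from CDKN1A. MDM2 (chromosome 12, 68808176 to 68850686, plus strand) read 41.6, 42.2 and 42.7 CPM in control, 25.2, 21.1 and 18.5 in melanosome and 20.2, 9.82 and 29.8 in glabridin libraries. Control libraries agreed closely, all melanosome and glabridin libraries lay below them, and the glabridin libraries spread about 3-fold around the melanosome values. MDM2 fell 1.95-fold in melanosome against control cells (log2 -0.96 ± 0.29, edgeR adjusted p = 0.0149), a call that was lost without melanosome replicate 3 (adjusted p = 0.0611), with library totals alone (0.0522) and with limma (0.0591). Glabridin against melanosome gave log2 -0.11 ± 0.29 (95% interval -0.76 to 0.54, edgeR adjusted p = 0.783), which became 0.21 without glabridin replicate 2 and -0.52 without glabridin replicate 3. MDM2, whose window holds the p53 full site printed above, was lower in both melanosome-loaded groups than in control (glabridin against control log2 -1.08 ± 0.29, edgeR adjusted p = 0.00709).

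TP53INP1, a nuclear and autophagy-linked protein that p53 induces and that takes part in arrest and death responses, fell at both steps. On chromosome 8 (94925972 to 94949411, minus strand), it gave 28.2, 27.2 and 29.0 CPM in control, 10.1, 8.12 and 9.33 in melanosome and 4.53, 3.02 and 6.44 in glabridin libraries. The 3 groups did not overlap. It fell 3.06-fold from control to melanosome cells (log2 -1.61 ± 0.20, edgeR adjusted p = 6.17e-05) and a further 1.97-fold with glabridin (log2 -0.97 ± 0.21, edgeR adjusted p = 0.00375), and glabridin cells held 6.01-fold less than control (log2 -2.59 ± 0.21, edgeR adjusted p = 1.54e-06). TP53INP1 lies wholly inside NDUFAF6 on the opposite strand, an overlap of 23440 bases, and whether counting used strand is not given. NDUFAF6 was not called between melanosome and control cells (4.28 CPM in control, 4.58 in melanosome, edgeR adjusted p = 0.518).

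**Figure D2:**
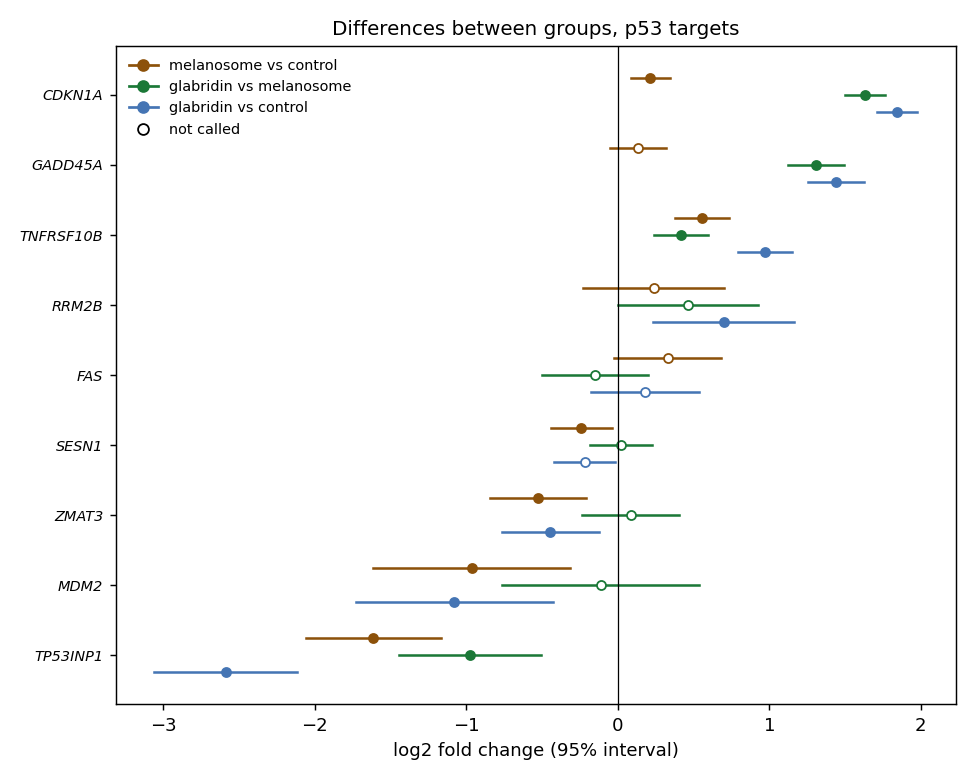
Log2 fold change (x axis) of each of the 9 p53 targets in melanosome against control, glabridin against melanosome and glabridin against control cells, with 95% intervals from edgeR; filled points passed an adjusted p of 0.05. CDKN1A and GADD45A lie furthest right in both glabridin comparisons and TP53INP1 furthest left in all 3, while the intervals of FAS cross 0 throughout.

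Of the death receptors among the members only TNFRSF10B was called, and the difference between the receptors was not tested. TNFRSF10B, the TRAIL receptor DR5 (chromosome 8, 23020133 to 23069179, minus strand), had 61.6, 62.6 and 62.6 CPM in control, 87.9, 93.1 and 93.8 in melanosome and 135, 107 and 124 in glabridin libraries, and the groups did not overlap. It rose 1.47-fold with melanosomes (log2 0.56 ± 0.08, edgeR adjusted p = 0.000182) and a further 1.33-fold with glabridin (log2 0.42 ± 0.08, edgeR adjusted p = 0.00196). The second rise was log2 0.24 without glabridin replicate 1 and did not pass with limma on log2(TPM + 1) (log2 0.22, adjusted p = 0.0820). Against control the rise in glabridin cells was 1.96-fold (log2 0.97 ± 0.08, edgeR adjusted p = 1.74e-06). FAS, the receptor of FAS ligand (chromosome 10, 88990582 to 89015785, plus strand), was near the bottom of the range at 4.10, 4.18 and 5.24 CPM in control, 6.43, 5.75 and 4.80 in melanosome and 4.71, 4.62 and 5.94 in glabridin libraries. Its groups overlapped and no comparison passed. The log2 difference was 0.33 ± 0.16 with melanosomes (95% interval -0.02 to 0.68, edgeR adjusted p = 0.093) and -0.15 ± 0.16 with glabridin (95% interval -0.50 to 0.20, edgeR adjusted p = 0.467). The first of these passed in 6 of 14 other settings.

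ZMAT3, an RNA-binding zinc finger protein that p53 induces and that acts on splicing, lies on chromosome 3 (179017223 to 179072279, minus strand). Its CPM was 42.1, 40.8 and 43.1 in control, 33.0, 28.5 and 25.8 in melanosome and 30.8, 24.2 and 37.5 in glabridin libraries, so control stood above both other groups, which overlapped each other. It fell by 0.53 ± 0.14 on the log2 scale in melanosome against control cells (edgeR adjusted p = 0.0085; 0.0783 with library totals alone and 0.124 with limma). With glabridin it read log2 0.08 ± 0.14 against melanosome cells (95% interval -0.23 to 0.40, edgeR adjusted p = 0.668), and log2 -0.44 ± 0.14 against control (edgeR adjusted p = 0.017, and 0.0508 without control replicate 3).

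RRM2B supplies the p53-inducible small subunit of ribonucleotide reductase, which makes deoxynucleotides for repair (chromosome 8, 102204502 to 102239118, minus strand). Libraries gave 12.1, 11.3 and 15.0 CPM in control, 17.7, 14.5 and 12.9 in melanosome and 19.9, 14.8 and 27.4 in the glabridin group. All 3 groups overlapped, with glabridin replicate 2 inside the melanosome range. Only glabridin against control passed, at log2 0.70 ± 0.21 (edgeR adjusted p = 0.0118), and this was 0.45 without glabridin replicate 3. Glabridin against melanosome cells stood at log2 0.46 ± 0.21 (95% interval 0.00 to 0.92, edgeR adjusted p = 0.0962) and passed without glabridin replicate 2, at log2 0.65 (adjusted p = 0.00539), while it was log2 0.21 without glabridin replicate 3 (adjusted p = 0.305).

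SESN1, a sestrin that restrains mTORC1 and is the classic p53-induced member of its family, changed little. On chromosome 6 (108986437 to 109094819, minus strand), it read 17.8, 17.4 and 18.2 CPM in control, 15.7, 14.7 and 14.9 in melanosome and 15.5, 13.7 and 16.6 in glabridin libraries. Control lay above the other groups, which overlapped. The fall of 0.24 ± 0.09 on the log2 scale with melanosomes passed narrowly (edgeR adjusted p = 0.04) and was lost in all 14 other settings, with adjusted p from 0.0530 to 0.665. Between glabridin and melanosome cells the difference was log2 0.02 ± 0.09 (95% interval -0.18 to 0.23, edgeR adjusted p = 0.866), and glabridin against control gave log2 -0.22 ± 0.09 (95% interval -0.42 to -0.02, edgeR adjusted p = 0.0527). This last difference passed in 3 of 14 other settings, with upper-quartile scaling, with DESeq2 and without glabridin replicate 3.

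Of the p53 family relatives, TP63 fell with melanosomes (348 ± 11.8 CPM in control, 254 ± 19.1 in melanosome, log2 -0.45 ± 0.12, edgeR adjusted p = 0.00838), a call lost with library totals alone and with limma. TP73 fell at both steps, from 12.5 ± 0.962 CPM in control to 8.07 ± 1.02 and 2.61 ± 0.301 (glabridin against melanosome log2 -1.63 ± 0.14, edgeR adjusted p = 7.45e-06).

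Family relatives of the members also moved in both directions. The share of tested relatives called was 53.8%, 53.8% and 69.2% in the 3 comparisons, beside 62.5%, 43.9% and 70.3% of all genes. Among 15 relatives 13 were tested; 4 rose and 3 fell with melanosomes, 6 rose and 1 fell with glabridin against melanosome cells, and 8 rose and 1 fell in glabridin against control cells. Leaving out any glabridin library raised the lower count of the second comparison to 2 or 3. The same held with RLE, upper-quartile or library-total scaling, with DESeq2 and with limma. SESN2, a sestrin known to be raised by ATF4, stood at 41.0 ± 2.30 CPM in control, 37.5 ± 4.04 in melanosome and 126 ± 4.70 in glabridin cells, a rise of log2 1.75 ± 0.09 with glabridin (edgeR adjusted p = 2.23e-07), where SESN1 read log2 0.02. SESN3 went down with melanosomes instead, by 1.03 ± 0.21 on the log2 scale (edgeR adjusted p = 0.00156). GADD45B and GADD45G rose with glabridin as GADD45A did. GADD45B had 56.3, 58.6 and 60.1 CPM in melanosome and 191, 467 and 163 in glabridin libraries (log2 2.23 ± 0.32, edgeR adjusted p = 0.000302), and the change was 1.60 without glabridin replicate 2, its highest library. GADD45G, at 1.27 ± 0.161 CPM in melanosome and 3.12 ± 0.931 in glabridin cells, rose by log2 1.29 ± 0.27 (edgeR adjusted p = 0.00326).

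CDKN1B, which codes for the kinase inhibitor p27, rose from 99.5 ± 8.43 to 185 ± 13.9 CPM with glabridin (log2 0.90 ± 0.08, edgeR adjusted p = 1.12e-05). CDKN1C, for p57, rose at both steps from a low level, 0.577 ± 0.0734 CPM in control to 1.30 ± 0.024 in melanosome and 2.46 ± 0.593 in glabridin cells. The S-phase subunit RRM2 rose 2.98-fold with melanosomes (log2 1.58 ± 0.11, edgeR adjusted p = 9.68e-07) and fell 1.96-fold with glabridin (log2 -0.97 ± 0.11, edgeR adjusted p = 6.81e-05). RRM2B, which substitutes for RRM2 outside S phase, was not called at either step. RRM1, the large subunit of the same enzyme, rose with melanosomes by log2 0.61 ± 0.06 (edgeR adjusted p = 9.06e-06). MDM4, the MDM2 partner that masks p53, fell with melanosomes as MDM2 did (log2 -0.70 ± 0.17, edgeR adjusted p = 0.00462). TP53INP2, which has roles in autophagy, stood at 83.8 ± 2.50, 71.9 ± 1.80 and 78.3 ± 5.27 CPM in the 3 groups and fell by 0.22 with melanosomes on the log2 scale (edgeR adjusted p = 0.0124), a call lost without control replicate 1 and in 4 other settings. TNFRSF10A, the other signalling TRAIL receptor, rose with glabridin by log2 0.61 ± 0.12 (edgeR adjusted p = 0.00182). The decoy receptor TNFRSF10C ran between 1.83 and 3.39 CPM in all libraries, and ZMAT2 between 61.8 and 75.7, with no call for either. TNFRSF10D and ZMAT1 had no more than 2 counts in any library and were not tested.

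**Figure D3:**
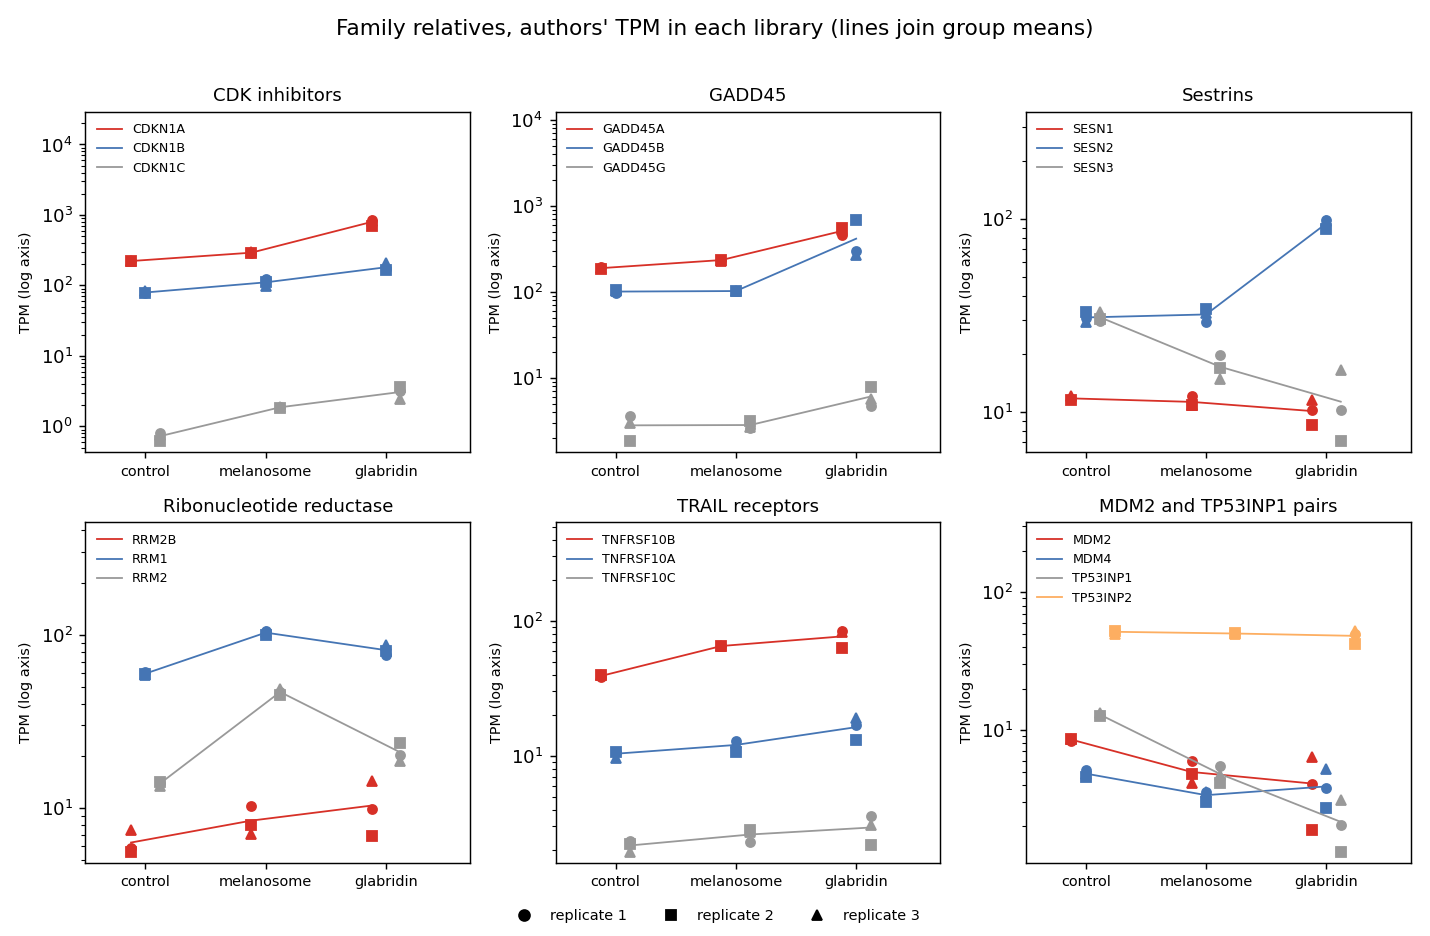
Authors' TPM (y axes, log scale) of members and their family relatives in every library, grouped by family; shapes give the replicate number and lines join group means. SESN2 separates from SESN1 in glabridin libraries, the GADD45 genes rise side by side there, and RRM2 peaks in melanosome libraries while RRM2B lies lower with wide spread.

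The wider set of direct p53 targets, 34 genes besides the members, moved in both directions. Of this set 52.9%, 64.7% and 73.5% were called in melanosome against control, glabridin against melanosome and glabridin against control cells. All genes tested gave 62.5%, 43.9% and 70.3%. With melanosomes 13 rose, 5 fell and 16 were not called, with a median log2 difference of 0.08, and 8 fell with only these 2 groups fitted. GDF15, a stress cytokine, rose from 21, 22 and 26 counts in control libraries to 143 ± 10.0 CPM (log2 8.04 ± 0.20, edgeR adjusted p = 9.71e-10), and AEN, an apoptosis-linked nuclease, rose by log2 2.66 ± 0.14. EDA2R, a TNF receptor family member, had 2, 0 and 0 counts in control and 97, 78 and 111 in melanosome libraries. BTG2, an antiproliferative gene, fell by 1.18 on the log2 scale, KITLG (KIT ligand) by 1.66 and TRIM22 by 0.98. With glabridin against melanosome cells 15 rose, 7 fell and 12 were not called, with a median of 0.22. BBC3, which codes for the death-promoting protein PUMA, rose from 42.9 ± 2.96 to 154 ± 15.2 CPM (log2 1.84 ± 0.09, edgeR adjusted p = 2.18e-07), and the stress kinase gene PLK3 rose by log2 1.92 ± 0.12. TRIM22 and POLH (a translesion polymerase) fell by 0.68 and 0.56 on the log2 scale. Against control 18 rose and 7 fell in glabridin cells (4 fell without control replicate 3), with GDF15, BBC3 and PLK3 having the smallest p among the rises and TRIM22, KITLG and BTG2 among the falls.

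**Figure D4:**
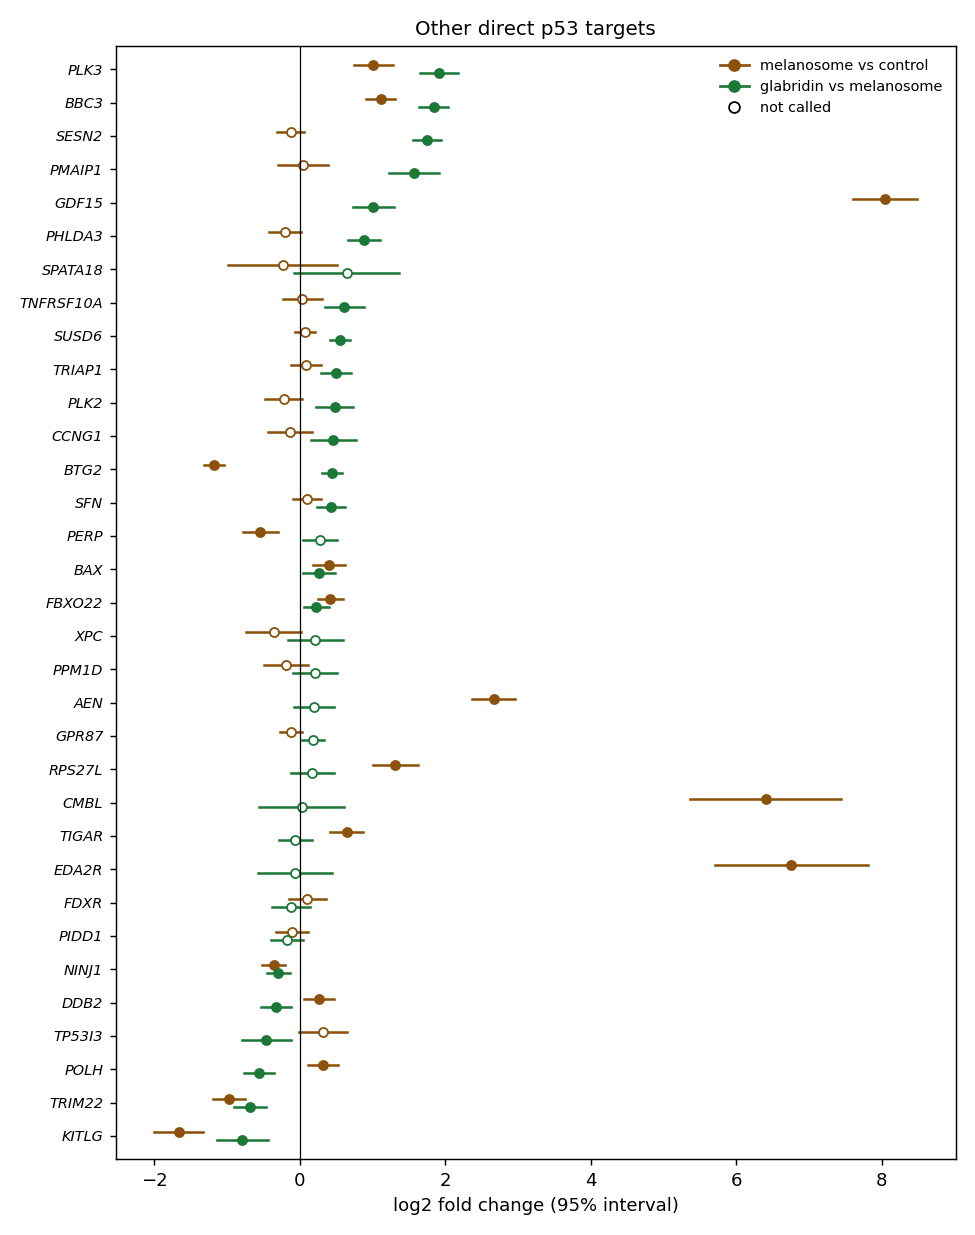
Log2 fold change with 95% intervals (x axis) of other direct p53 targets in melanosome against control and glabridin against melanosome cells; filled points passed an edgeR adjusted p of 0.05. PLK3, BBC3 and SESN2 lie highest in the glabridin comparison, and GDF15 in the melanosome comparison.

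Of 25 regulators of p53, 18 fell, 4 rose and 3 were not called with melanosomes (median log2 difference -0.37). Called were 88.0% of them, beside 62.5% of all genes. Glabridin cells gave 48.0% beside 43.9% against melanosome cells, and 76.0% beside 70.3% against control. The split depended on the scaling and the tool: 10 fell with library totals alone, and 8 fell and 7 rose with limma. The ribosomal proteins RPL5 and RPL11, which bind MDM2 when ribosome assembly fails, fell by 0.96 and 0.71 on the log2 scale, and the p53 kinase gene DYRK2 by 1.02. TP53RK, CHEK1 and HIPK2, which code for kinases that act on p53 or its checkpoint, rose by log2 0.77, 0.54 and 0.31. HIPK2 lost its call on leaving out any of the 6 libraries compared, and the higher count was 2 without any control library or without melanosome replicate 2 or 3. With glabridin against melanosome cells 4 rose and 8 fell. CHEK1 rose again there, by log2 0.48, and RPL11 and RPL5 by 0.25 and 0.23, both lost without glabridin replicate 1; the deacetylase gene HDAC1 fell by 0.61, beside TP73. The higher count was 0 with limma, 1 without glabridin replicate 1 and 9 without glabridin replicate 2. In glabridin against control cells 4 rose and 15 fell; KAT5, an acetyltransferase gene, rose by log2 0.40, beside CHEK1 and TP53RK.

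Cell cycle genes, the machinery on which p21 acts, were next. Of 23 cyclins, kinases and pocket proteins 13 rose, 5 fell and 5 were not called with melanosomes (median log2 difference 0.29). The mitotic cyclin CCNB1 rose from 29.8 ± 0.862 to 100.4 ± 1.72 CPM (log2 1.75 ± 0.06, edgeR adjusted p = 6.97e-09), CCNB2 by log2 1.88 and CDK2 by 2.50. Overlap with other genes was looked up for the members alone, so reads from a gene on the opposite strand were not checked for here. The part of such reads in the rise of CDK2, the largest of these, was not tested. CCND2, RBL2 and LIN9, the last of these a part of the complex that silences cell cycle genes at rest, fell by 0.80, 0.57 and 0.77 on the log2 scale. With glabridin against melanosome cells 1 rose, 8 fell and 14 were not called (median -0.10), and 14 fell with library totals alone or limma. CCND1, PCNA and CDC25B fell by 0.86, 0.49 and 0.40, and CDK6 rose by 0.53, a call lost in 8 settings, among them without melanosome replicate 2 or 3 or glabridin replicate 1 or 3 (0.26 without the last). Against control, 9 of the 23 rose in glabridin cells and 7 fell. Shares of the 23 called were 78.3%, 39.1% and 69.6% in the 3 comparisons, beside 62.5%, 43.9% and 70.3% of all genes.

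Among 6 other CDK inhibitors 5 rose and 1 fell with melanosomes, CDKN2C by log2 1.20, CDKN1C by 1.17 and CDKN2D by 0.60, and CDKN2B fell (log2 -0.55 ± 0.12). The 3 comparisons called 100%, 83.3% and 66.7% of these 6, beside 62.5%, 43.9% and 70.3% of all genes. With glabridin against melanosome cells 4 rose and 1 fell; CDKN1B, CDKN1C and CDKN2D had the smallest p among the rises and CDKN2C fell by 0.98, while 2 rose without glabridin replicate 1, where CDKN2D was no longer called. Against control 4 rose and none fell in glabridin cells, CDKN1B, CDKN2D and CDKN1C by log2 1.19, 1.02 and 2.08; leaving out glabridin replicate 3 gave 1 lower.

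In the death receptor pathway more genes fell than rose. Its tested genes were called in 58.3%, 66.7% and 83.3% of cases in the 3 comparisons, beside 62.5%, 43.9% and 70.3% of all genes. With melanosomes 6 of 12 tested genes fell, 1 rose and 5 were not called (median log2 -0.42), and with glabridin against melanosome cells 7 fell, 1 rose and 4 were not called (median -0.32). The higher count in the second was 3 without glabridin replicate 2 and 2 without glabridin replicate 3. TNFSF10, which codes for TRAIL, the ligand of DR5, measured 776 ± 2.85 CPM in control, 205 ± 16.8 in melanosome and 64.6 ± 12.4 in glabridin cells. It fell by 1.92 ± 0.12 and then by 1.67 ± 0.12 on the log2 scale (edgeR adjusted p = 2.48e-07 and 2.05e-06), opposite in sign to its receptor. CASP10, a receptor-proximal caspase gene, fell at both steps by 0.82 and 0.71, and TNFRSF1A by 0.67 with melanosomes. The adaptor gene FADD rose by log2 0.31 with melanosomes and fell by 0.81 with glabridin. Against control 9 fell and 1, TNFRSF10A, rose in glabridin cells (2 rose without glabridin replicate 2). TNFRSF10D and FASLG did not pass the filter.

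Genes of the integrated stress response, the ATF4 and CHOP programme that answers to eIF2 phosphorylation, rose in the same glabridin libraries as CDKN1A, GADD45A, TNFRSF10B and SESN2. Of its 11 listed genes 8 rose and 1 fell with melanosomes (median log2 0.81), 10 rose and 1 fell with glabridin against melanosome cells (median 2.02), and all 11 rose in glabridin against control cells (median 3.13). ASNS, CHAC1 and VLDLR had the smallest p among the first set of rises, at log2 3.42, 4.13 and 2.08, with NUPR1 lower at -0.98, and VLDLR was the gene that fell in the second, by 0.55. ATF3, ATF4 and DDIT3, which codes for CHOP, rose by log2 2.98, 2.02 and 2.17 with glabridin over melanosome cells. By smallest p, ATF3, DDIT3 and ASNS came first among the rises against control. Called shares of the list were 81.8%, 100% and 100% in the 3 comparisons, beside 62.5%, 43.9% and 70.3% of all genes. The part of this programme in the members' changes was not tested.

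Pigment cell transcripts moved with the groups as well. The summed CPM of 12 melanocyte markers ran from 29.2 to 32.2 in control libraries, with TYR, TRPM1 and OCA2 at 0, from 3158 to 3284 in melanosome and from 1735 to 3443 in glabridin libraries, and all 12 rose with melanosomes. Keratinocyte markers, of which 12 were listed, summed to between 12988 and 13174 CPM in control libraries. Their sums ran from 10856 to 11814 in melanosome and from 8641 to 11339 in glabridin libraries. Singly they did not move together. With melanosomes 2 rose, 7 fell and 3 were not called, and with glabridin against melanosome cells 4 rose, 4 fell and 4 were not called. Fibroblast markers summed to no more than 45.5 CPM. The part of melanocyte RNA in the members' changes was not tested, and in bulk libraries fewer cells of a type and less RNA per cell cannot be told apart. MDM2 overlaps the gene of carboxypeptidase M by 8490 bases on the opposite strand, and that gene went from 4, 4 and 2 counts in control to 96, 92 and 68 in melanosome libraries.

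Most members shared a pattern of spread between glabridin replicates, where deviations over 13855 genes were also related to GC content. Glabridin replicate 2 was the lowest of its group for 8 of 9 members, all but GADD45A, and replicate 3 the highest for 6, where replicate 2 was lowest for 41.5% of all tested genes and replicate 3 highest for 40.1%. MDM2 lay 0.88 below its glabridin group mean in replicate 2 and 0.72 above it in replicate 3, in log2 CPM. The members that spread most have longest annotated transcripts poor in G and C, MDM2 (41.9% GC, 12633 bases), ZMAT3 (39.5%, 9406 bases), TP53INP1 (39.6%) and RRM2B (36.4%), while CDKN1A (58.1%) and TNFRSF10B (50.0%) spread less, as did FAS (39.1%) and SESN1 (43.4%). Over 13855 genes the deviation from the group mean was related to GC content with Spearman's rho 0.43 in glabridin replicate 2 and -0.57 in replicate 3, and -0.56 in melanosome replicate 1 and 0.49 in replicate 3; genes are not independent replicates. Log2 fold change itself was related to GC content with rho 0.30 for melanosome against control and -0.02 for glabridin against melanosome. The part of GC content in the falls of MDM2, TP53INP1 and ZMAT3 was not tested.

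**Figure D5:**
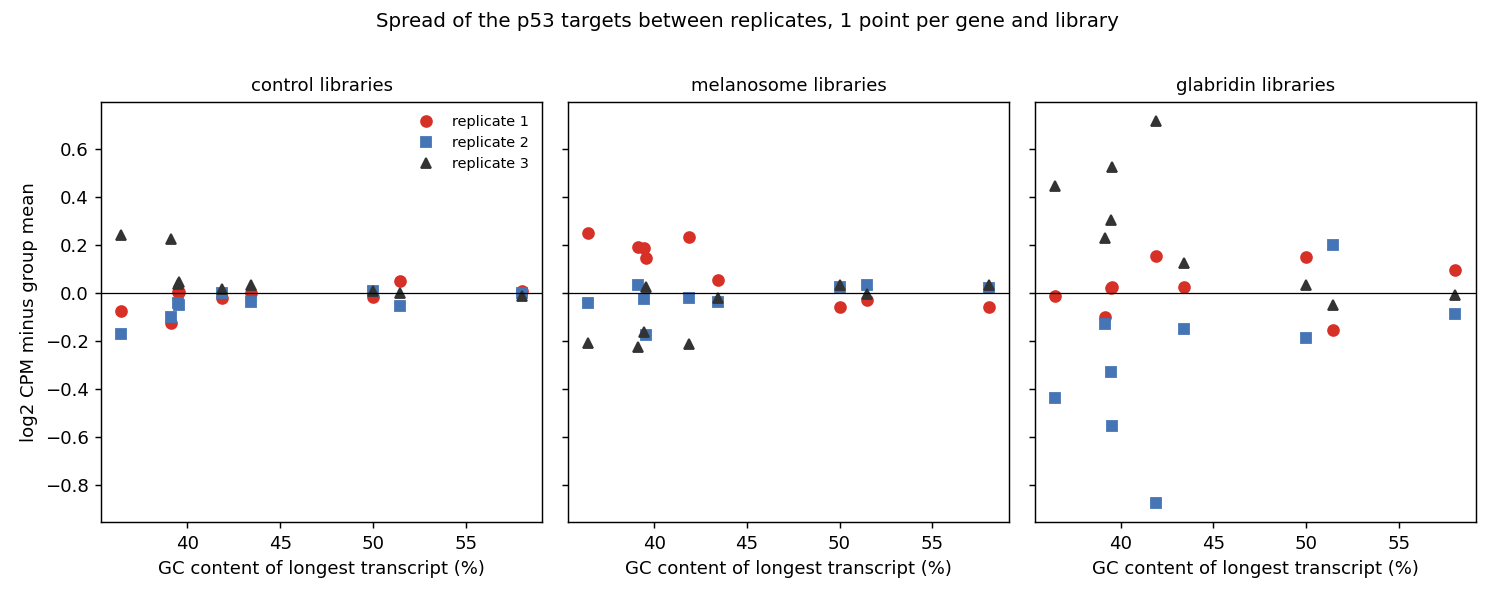
Log2 CPM minus the group mean (y axis) of the 9 p53 targets against GC content of the longest transcript in percent (x axis), one panel per group; colours and shapes give the replicate. Control points lie near 0 with small deviations, and most glabridin points of low GC fan out, replicate 2 below and replicate 3 above.

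For each member the genes with the most similar profile over the 9 libraries were found by the root-mean-square difference in centred log2 CPM, as a description with no test. CDKN1A was nearest to YIPF2 (0.0381) and LIF (0.0832), and TNFRSF10B to BIK (0.0392) and RBM14 (0.0566). SESN1 lay nearest to PARN (0.0305), ZMAT3 to SRSF10 (0.0486) and MAP3K1 (0.0550), and GADD45A to LRRC8A (0.0776) and PRSS8 (0.102). MDM2 had CCNT2 (0.0890) and ITSN2 (0.0976) as neighbours, FAS had B3GLCT (0.0998) and TRUB1 (0.106), TP53INP1 had ATOSA (0.121) and FLRT3 (0.130), and RRM2B had PPTC7 (0.129) and SOWAHC (0.141). No member was among the nearest 2 genes of another; CDKN1A and GADD45A differed by 0.220, and ZMAT3 and SESN1 by 0.167.

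Depth was similar across groups, with deposited counts summing to between 39653425 and 46690787 per library, and each pair of replicates differed by more than sampling noise (chi-square per gene 3.14 to 5.28 in control, 4.33 to 13.9 in melanosome and 30.0 to 99.6 in glabridin pairs). The members with the fewest counts were FAS, with 179 to 332 per library, and TP53INP1 in glabridin libraries, with 202, 120 and 294.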

How the data were processed

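Poly(A) RNA of 9 HaCaT libraries in 3 groups of 3 was sequenced from strand-specific paired-end libraries, per the labels' protocols. The authors deposited raw read counts per gene, with TPM and FPKM beside them per the file headers; FPKM was not used for any result, and a second deposited TPM table differed by 0. The build was hg38, per the submitters' processing notes; for the aligner, the counter, its use of strand and the annotation, the entry is: not given in the sources used here. Counts from 1 to 49 were even in 69.9% to 72.2% of cases, against 48.7% to 51.1% of counts over 500, so a count may not be an independent molecule.

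Of 20263 Ensembl identifiers 20148 matched a symbol. The count test was edgeR 4.0.16 under R 4.3.3 (TMM, filterByExpr, quasi-likelihood test, all 9 libraries, no block), with Benjamini-Hochberg adjustment over 13912 genes. SEs and 95% intervals follow from the F statistic. Alternatives were RLE, upper-quartile and library-total scaling, no filter, a replicate block, 2-group fits, each library left out, DESeq2 1.42.0 and limma 3.58.1 on log2(TPM + 1). The fit was also run on simulated data. These had no GC-linked spread between replicates, so that run does not test the calls under such spread. Positions are from GENCODE 29 and promoters from RefSeq, each on GRCh38. Named beside the members were all family relatives, the 3 smallest p in each direction of each list, and the nearest 2 genes; TP63 was added after its values were seen, as were the genes overlapping members. Some genes that the rule names are not reported here. The members and lists were chosen with earlier results of these data known.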

Additional observations from a re-analysis of the deposited data

How the results depend on the processing

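CDKN1A and TP53INP1 kept their calls in every comparison under all 14 alternatives, as did GADD45A in both glabridin comparisons. With melanosomes the number of members higher, 2, became 4 with library totals alone and with limma and 5 with only the 2 groups compared, and the number lower, 4, became 1 with library totals alone and with limma. Leaving out each library in turn kept 2 higher and gave from 2 to 3 lower. ZMAT3 in glabridin against control cells lost its call without control replicate 3 (adjusted p = 0.0508). Library totals alone shifted the median log2 difference of all genes by 0.17 for melanosome against control and -0.18 for glabridin against melanosome, and moved the share of called genes that were higher from 47.2% to 66.0% and from 54.0% to 29.0%; limma gave 68.5% and 27.6%, upper-quartile scaling 38.0% in the second, and leaving out glabridin replicate 1 41.4%, with 2037 genes higher in place of 3301.

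Values near 0 changed sign for glabridin against melanosome, with no call. SESN1 read -0.028 with RLE scaling and with DESeq2, -0.092 with upper-quartile scaling, -0.15 with library totals and limma and -0.0063 with only the 2 groups compared. ZMAT3 read -0.032 with upper-quartile scaling, -0.092 with library totals and -0.10 with limma. With libraries left out SESN1 ran from -0.081 to 0.094, ZMAT3 from -0.081 to 0.23 and MDM2 from -0.52 to 0.21. The cause of these changes was not tested.

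Deviations of same-numbered libraries had correlations from -0.23 to 0.05 over the comparisons, and differently numbered glabridin and melanosome libraries from -0.20 to 0.27. Since deviations within groups were related to GC content, this check cannot decide whether the numbers pair the samples. The replicate block gave 8255, 5523 and 9507 genes called in the 3 comparisons in place of 8691, 6111 and 9774, and 3 members lower with melanosomes in place of 4. Counts were fewest among the members for FAS and, in glabridin libraries, TP53INP1, and the part of depth in their values was not tested.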
